A study of Mus musculus with 36 samples.

Results

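The macrophage response to LPS was examined in the presence of the compound CCM in cells that carry a myeloid deletion of Bmal1. The count columns of 6 LPS+CCM libraries were set against those of 6 libraries treated with CCM alone, 12 of the 36 libraries in the series. Bone marrow derived macrophages (BMDMs) were grown for 7 days with MCSF from female mice on a C57BL/6 background, aged 13 to 17 weeks. KO cells came from LysM-Cre;Bmal1 flox/flox mice, and the WT cells used for 1 comparison came from Bmal1 flox/flox mice without Cre (n = 3). Each treatment lasted 6 h, with CCM at 100 µM and LPS at 100 nM, so both groups shared the deletion, the CCM dose and the time and differed in LPS. Vehicle and LPS libraries of the KO (n = 6 each) served to set the response beside the one without CCM. Cre is driven here by the promoter of Lyz2 (LysM), a lysozyme gene of myeloid cells, so the deletion is confined by design to cells that use that promoter. Each group is a set of bulk cultures, in which fewer cells of a type and less RNA per cell cannot be told apart.

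LPS, the outer membrane lipid of Gram-negative bacteria, binds CD14 and the receptor formed by TLR4 and MD-2 on macrophages. From the plasma membrane the adaptor MyD88 leads to NF-kB and AP-1, which switch on cytokine and chemokine genes. From endosomes the adaptor TRIF leads to IRF3 and to interferon beta, which acts back on the cells through its receptor to switch on antiviral genes. BMAL1, encoded by Bmal1 (Arntl in the gene table), pairs with CLOCK on E-box sequences to drive the circadian clock, and CCM (Core Circadian Modulator) is a small molecule that targets the PASB domain of BMAL1.

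The 12 libraries held 15326246 to 27744012 read pairs on genes. Bmal1 itself was counted at 5.14 to 10.4 CPM (median 7.14) in CCM libraries and at 3.94 to 9.11 CPM (median 6.82) in LPS+CCM libraries, where CPM are counts scaled to library size with TMM factors. The groups overlapped, and the difference was -0.20 ± 0.227 on the log2 scale (SE, as for each ± beside a log2 change, edgeR adjusted p = 0.53). Scaled together with the WT libraries, KO cells held 5.08 to 10.7 CPM of Bmal1 with CCM against 8.55 to 11.1 CPM in WT, and 3.99 to 9.34 CPM with LPS+CCM against 11.5 to 12.9 CPM in WT. The genotypes thus overlapped with CCM and did not overlap with LPS+CCM. The overlap with CCM came from KO replicate 2 alone (10.7 CPM), as the other KO libraries with CCM held 5.08 to 8.04 CPM. Replicate 2 was also the highest KO library with LPS+CCM (9.34 CPM). A gene count covers all exons, so transcript from outside the floxed part is included and the level does not check the deletion. The macrophage markers Lyz2, Csf1r, Mpeg1 and Cd68 were abundant in all 12 libraries, and summed macrophage markers gave 13087 to 26485 CPM with CCM and 14578 to 23988 CPM with LPS+CCM. Of 11 neutrophil markers tested, 0 were higher and 6 lower with LPS+CCM (summed 587 to 1152 against 441 to 894 CPM). Summed T and NK cell markers gave 18.3 to 32.4 CPM with CCM and 7.27 to 18.9 CPM with LPS+CCM (1 of 3 tested higher, 2 lower), with Cd3e, Cd3d and Cd3g too low to test, and summed endothelial markers 105 to 151 and 21.5 to 67.4 CPM (0 of 4 higher, Vwf lower). The part of these markers in the results below was not tested.

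A few libraries stood apart from the rest. Ribosomal protein genes took 9.45% of the reads in CCM replicate 6 against 3.16 to 3.37% in CCM replicates 1 to 5. In LPS+CCM they took 6.09% in replicate 6, 4.36% in replicate 5 and 3.38% in replicate 2, against 2.17 to 2.35% in replicates 1, 3 and 4. The difference between long and short genes in their deviation from the group median was lowest in replicate 6 of both groups (-1.31 and -0.927 on the log2 scale). Some results are given below also without replicate 6 and in replicates 1, 3 and 4 alone, the latter chosen after seeing the data. The others come from the 12 libraries, although CCM replicate 6 was apart from the other CCM libraries for 36 named genes. The part of library composition in the group difference was not tested. Along the first principal component, which held 57.7% of the variance, the treatments separated, while on the second (29.4%) replicate 6 of both groups lay far from the other libraries. Il1b, Cxcl10, Dbp, Nr1d1, Tap1, Psmb9, Slco2b1, Hpgd and Glul are among the named genes that overlap another annotated gene, and without a stated strand setting reads on the overlap cannot be assigned to one of them.

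**Figure D1:**
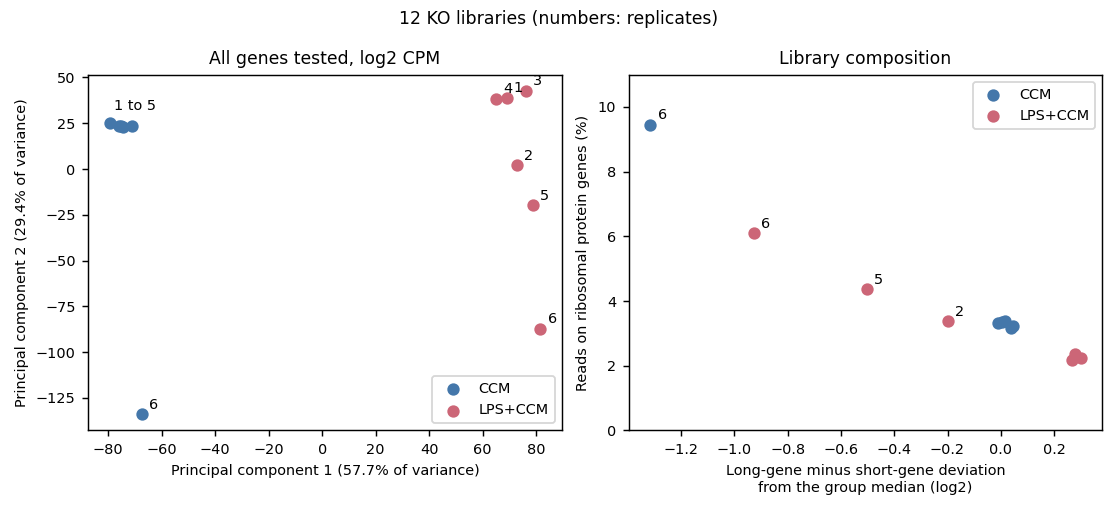
The 12 KO libraries on the first and second principal components of log2 CPM over all tested genes (left) and by the long minus short gene deviation (log2, horizontal axis) and the percent of reads on ribosomal protein genes (right), with 1 point per library and replicate numbers beside it. CCM replicate 6 has the highest ribosomal share, 9.45%, and the lowest deviation, -1.31, and the treatments separate along the first component.

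LPS altered the expression of 38.2% of the genes tested. With edgeR's quasi-likelihood test and Benjamini-Hochberg adjustment, 5250 of 13727 genes passed (adjusted p no higher than 0.05), 2598 higher with LPS+CCM (18.9% of those tested) and 2652 lower (19.3%). A change of at least 1 on the log2 scale was held by 1443 of the raised genes (10.5% of those tested) and by 1534 of the lowered ones (11.2%). For 3491 genes (25.4%) the 6 LPS+CCM libraries did not overlap the 6 CCM libraries, and 4987 of the called genes moved in the same direction in each of the 6 replicate numbers. Leaving out replicate 6 raised the count to 7821 of 13847 genes (56.5%), and replicates 1, 3 and 4 alone gave 8300 of 14018 (59.2%, with 28.4% of those tested higher and 30.8% lower). Of the 5250 genes, 5224 were also called without replicate 6 and 5050 also in replicates 1, 3 and 4. The balance of directions depends on scaling: 49.5% of the calls were higher with TMM, 36.8% with upper-quartile scaling and 26.7% with total counts, which moved the median of all genes from -0.03 to -0.21 and -0.37. Changes under the 2 other scalings are read relative to those shifts.

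Among called genes with a mean log2 CPM of 1 or more and 1 direction across all 6 replicate numbers, those raised most were inflammatory effectors that were nearly silent with CCM alone. Nos2 (chr11:78920787-78960254, mm10), the inducible nitric oxide synthase, was read at 0 to 0.169 CPM (median 0.0731) with CCM and at 83.2 to 284 CPM (median 158) with LPS+CCM. Both groups were far apart, with 11 reads over all 6 CCM libraries and 0 in 2 of them, and the fitted change of 10.96 ± 0.573 (SE) rests on those few reads. Cxcl3 (chr5:90786103-90789600), a neutrophil chemoattractant, stood at 0.308 to 1.33 CPM (median 0.498) with CCM and 546 to 1299 CPM (median 728) with LPS+CCM, a log2 change of 10.52 ± 0.449 (edgeR adjusted p = 8.75e-10). Every LPS+CCM library exceeded every CCM library for both genes. Ccl5, which draws T cells and monocytes, was at 0.881 to 7.37 CPM (median 1.94) with CCM and 3227 to 6833 CPM (median 4387) with LPS+CCM, without overlap (10.51 ± 0.636). Il1b, the pyrogenic cytokine made as an inactive precursor, stood at 1.54 to 4.85 CPM (median 2.11) with CCM and 2019 to 4365 CPM (median 3159) with LPS+CCM, again without overlap (10.28 ± 0.409). Il12b, the p40 subunit of IL-12 and IL-23, completed the 5 largest rises of this set, at 10.16 ± 0.611 from 21 CCM reads.

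In the same set, which leaves out some weakly expressed genes with larger changes, the 5 largest falls were in genes of varied roles. Slco2b1 (chr7:99657804-99711340), an organic anion transporter, was present at 18 to 24.3 CPM (median 21.9) with CCM and at 0.0744 to 0.483 CPM (median 0.184) with LPS+CCM, the latter from 29 reads in all. All CCM libraries lay above all LPS+CCM libraries, and the log2 change was -6.43 ± 0.347 (edgeR adjusted p = 6.52e-09). St6gal1, a sialyltransferase of the Golgi, was at 33.3 to 54.3 CPM (median 48.6) with CCM and 0.426 to 1.45 CPM (median 1.09) with LPS+CCM, without overlap (-5.52 ± 0.264). Further falls were those of Zdhhc14, a protein palmitoyltransferase (-5.07 ± 0.174), Cd28, a costimulatory receptor best known on T cells (-4.87 ± 0.592), and Arhgap19, a GTPase activating protein (-4.64 ± 0.193).

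**Figure D2:**
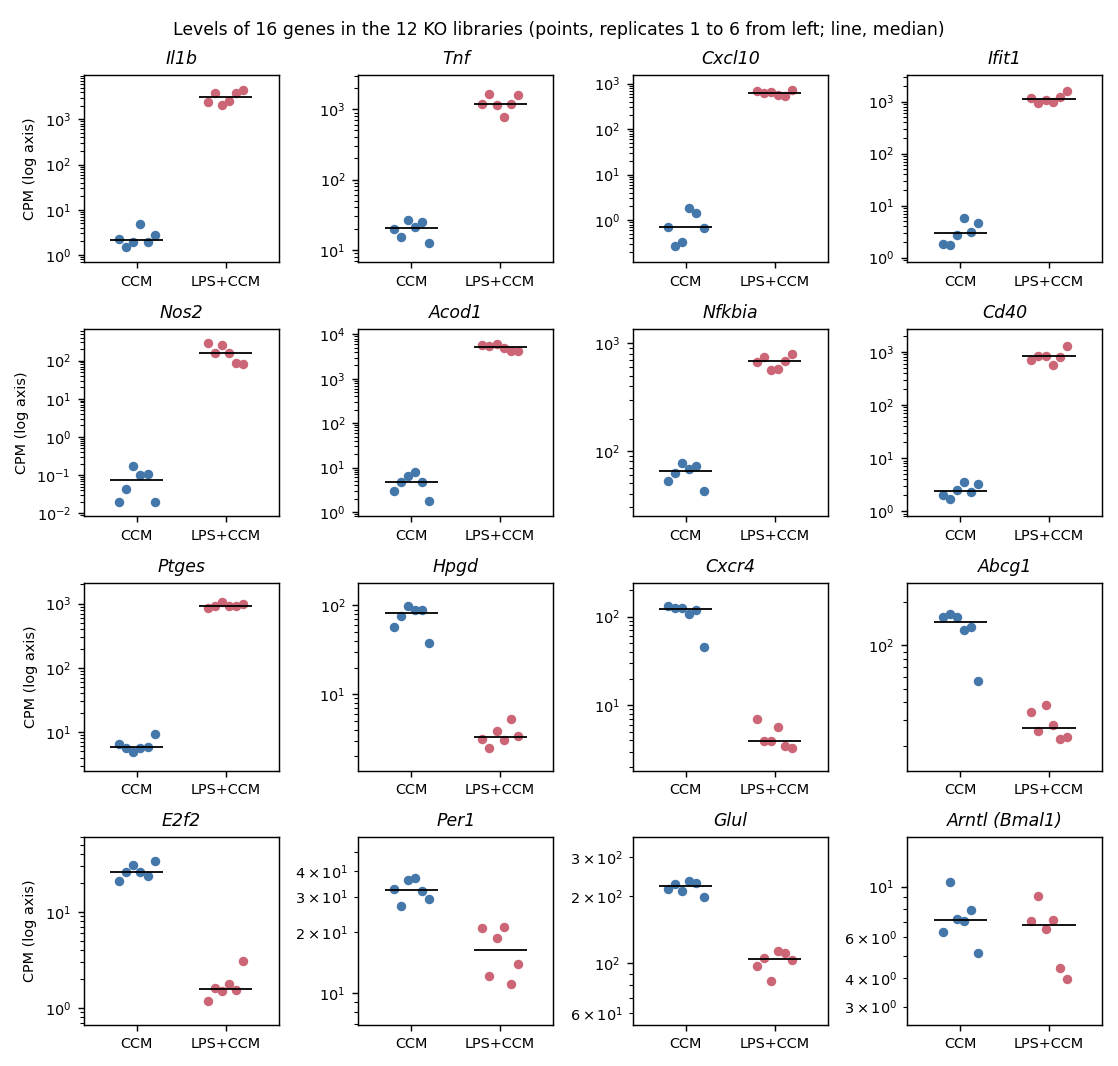
Levels of 16 genes (CPM, log axis) in the CCM and LPS+CCM libraries of the KO, 6 of each, with 1 point per library in replicate order and a line at the median. Nos2 has 0 reads in 2 CCM libraries, which are drawn at 0.02 CPM. The groups do not overlap for Il1b, Tnf or Cxcl10, which are higher with LPS+CCM, or for Cxcr4, which is lower, and they overlap for Arntl (Bmal1).

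The receptor complex and its adaptors were raised in part. Of 23 genes tested, 12 rose and 3 fell, with a median of 0.70 against -0.03 over all genes. For this list and those below, the shares over all genes tested were 18.9% higher and 19.3% lower, and the 3 falls here lay below that share. Cd14, the LPS coreceptor, was at 347 to 489.8 CPM (median 375) with CCM and 2194 to 3645 CPM (median 2795) with LPS+CCM, without overlap (2.89 ± 0.175). Irak3, a kinase-dead brake on signalling, rose by 3.78 and the adaptor Myd88 by 1.98, and the lipopeptide receptors Tlr2 (3.43) and Tlr1 (3.31) rose too. Ly96, which encodes MD-2, rose by 0.90. Tlr4 itself was at 26 to 71.2 CPM (median 63.2) with CCM and 24.1 to 45.6 CPM (median 38.2) with LPS+CCM, a change of -0.69 ± 0.24 (edgeR adjusted p = 0.0349). Its groups overlapped, and the call was lost without the filter and when any 1 of replicates 1 to 5 was left out (edgeR adjusted p = 0.0725 to 0.126). The call was kept without replicate 6. The overlap came from CCM replicate 6, at 26 CPM against a median of 63.4 CPM in CCM replicates 1 to 5. Irak1 (-0.58), a kinase of the receptor complex, and Tlr13 (-0.95), a sensor of bacterial ribosomal RNA, fell with Tlr4, while Ticam1, which encodes TRIF, had a change of 0.36 that did not pass.

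NF-kB subunits and inhibitors rose nearly as a block. Of 18 genes tested, 16 rose and 0 fell, with a median of 2.56, and the other 2, Nfkbid and Tnip2, had changes of 0.32 and 0.19. Nfkbia, the inhibitor that holds NF-kB in the cytoplasm and is itself a target of it, stood at 42.8 to 77.9 CPM (median 65.3) with CCM and 570.3 to 789.7 CPM (median 681) with LPS+CCM. The 6 LPS+CCM values all exceeded the highest CCM value, a change of 3.42 ± 0.172 (edgeR adjusted p = 3.70e-09). Among the subunits Nfkb1 (2.30), Nfkb2 (3.68) and Relb (2.91) rose more than Rela (1.24) and Rel (1.27), as values. Nfkbiz (3.68), a nuclear cofactor for secondary genes such as Il6, and Tnfaip3 (3.26), the A20 deubiquitinase that ends signalling, were also higher.

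Cytokine genes held large rises. Of 24 genes tested, 17 rose and 1 fell, with a median of 3.70. Tnf (chr17:35199381-35202007) was already at 12.7 to 26.8 CPM (median 20.4) with CCM and reached 784 to 1639 CPM (median 1203) with LPS+CCM. Its groups were separate, and the change was 5.98 ± 0.267 (edgeR adjusted p = 1.33e-09). Il6, which drives the acute phase response, stood at 0 to 0.719 CPM (median 0.206) with CCM and 205 to 395 CPM (median 258) with LPS+CCM, without overlap (9.82 ± 0.54, from 40 CCM reads). The cytokines Il1a (8.51), Il12a (8.66) and Il27 (7.43), the inflammasome substrate Il18 (3.03) and Il10 (3.51), the main anti-inflammatory cytokine of macrophages, were raised as well. Per kilobase of gene length, the mean level with LPS+CCM was 1656 ± 499.6 RPKM (SD, n = 6) for Il1b, 772 ± 194 RPKM for Tnf, 328 ± 71.2 RPKM for Il1a, 247 ± 27.2 RPKM for Il1rn, 144 ± 48.4 RPKM for Il27 and 116 ± 33.3 RPKM for Il6, where Il27 and Il6 lay within their spread. Il1b overlaps the gene Il1bos, and the reads of the overlap cannot be told apart. Osm, an IL-6 family cytokine, was at 16.5 to 29.99 CPM (median 23.3) with CCM and 7.61 to 11.5 CPM (median 9.57) with LPS+CCM, without overlap (-1.29 ± 0.181), a direction opposite to the other called members. Ifnb1, which encodes interferon beta, was below the filter, with 0 reads with CCM and 92 with LPS+CCM (0.347 to 1.19 CPM, median 0.745), at least 33.6-fold higher against a floor of 3 reads over the group.

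Chemokine genes had the highest median of the 25 lists. Of 20 genes tested, 18 rose and 1 fell, with a median of 4.98. Cxcl10 (chr5:92346638-92348889), an interferon-responsive ligand of CXCR3, was read at 0.264 to 1.89 CPM (median 0.695) with CCM and 546 to 712 CPM (median 637) with LPS+CCM. The groups were apart by a change of 9.45 ± 0.481, and Cxcl2, a neutrophil chemoattractant, rose by 6.55 ± 0.415. Cxcl11 had 0 reads in the CCM libraries and 872 with LPS+CCM, at least 318-fold higher, so its fitted value is not a bound and with it at the bound the list's median stayed at 4.98. Per kilobase, Ccl5 led with 4665 ± 1383 RPKM (SD, n = 6) in LPS+CCM, ahead of Ccl3 (1868 ± 363 RPKM), Ccl4 (1064 ± 402 RPKM), Cxcl2 (937 ± 201 RPKM), Ccl9 (762 ± 162 RPKM), Cxcl10 (278 ± 30.3 RPKM) and Cxcl3 (246 ± 88 RPKM), where neighbours from Ccl4 to Ccl9, and Cxcl10 and Cxcl3, lay within their spread. Cxcl14, which draws monocytes and dendritic cells, went the other way at -1.28 ± 0.232.

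Genes of the interferon response rose with few exceptions. Of 51 genes tested, 48 rose and 1 fell, with a median of 4.48, where 18.9% of all genes tested rose. Ifit1, which binds foreign RNA that lacks host cap marks, was at 1.72 to 5.87 CPM (median 2.94) with CCM and 953 to 1568 CPM (median 1105) with LPS+CCM. No library of one group entered the range of the other, and the change was 8.46 ± 0.371 (edgeR adjusted p = 1.17e-09). Rsad2, the viperin antiviral enzyme (8.12), Gbp5, a guanylate binding protein of pathogen vacuoles (9.81), Mx1 (8.71) and Isg15, the ubiquitin-like modifier (8.13), were among them. The factors of the interferon receptor pathway rose by smaller amounts, Stat2 by 3.03 and Irf9 by 1.66. Irf3 had a change of 0.25 that did not pass, and Irf8, a factor of myeloid development, was the 1 member lower (-0.51 ± 0.118). The Gbp, Ifit, Oas and Trim30 families hold near-identical copies whose reads may be split by the counting, so their single-gene values are uncertain.

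The promoters of 6 of these raised genes are printed because they carry motif letters of the factors named above. Each is the 250 bases before the RefSeq start on build GRCm38.p6, 5′ to 3′ on the gene's strand, Cxcl3 at chr5:90785851-90786100 (+), Il6 at chr5:30012864-30013113 (+), Nfkbia at chr12:55492648-55492897 (-), Gbp5 at chr3:142496684-142496933 (+), Cxcl10 at chr5:92348890-92349139 (-) and Ifit1 at chr19:34640639-34640888 (+). Capitals mark the searched letters on either strand: GGGA, any base and TTTCC for kappaB, GAAA, 2 bases of any kind and GAAA for ISRE, TGANTCA for AP-1 and CACGTG for the E-box. A match on the other strand shows the reverse complement, and no printed match overlaps another.
Cxcl3 promoter: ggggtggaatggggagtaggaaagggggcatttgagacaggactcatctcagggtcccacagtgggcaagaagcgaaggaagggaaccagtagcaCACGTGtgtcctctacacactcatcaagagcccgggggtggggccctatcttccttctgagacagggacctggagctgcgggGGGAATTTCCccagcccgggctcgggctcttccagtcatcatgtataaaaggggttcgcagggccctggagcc
Il6 promoter: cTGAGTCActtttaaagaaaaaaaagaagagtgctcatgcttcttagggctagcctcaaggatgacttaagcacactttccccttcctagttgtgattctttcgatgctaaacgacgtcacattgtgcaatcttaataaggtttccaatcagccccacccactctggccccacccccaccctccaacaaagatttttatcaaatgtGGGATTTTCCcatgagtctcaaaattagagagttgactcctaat
Nfkbia promoter: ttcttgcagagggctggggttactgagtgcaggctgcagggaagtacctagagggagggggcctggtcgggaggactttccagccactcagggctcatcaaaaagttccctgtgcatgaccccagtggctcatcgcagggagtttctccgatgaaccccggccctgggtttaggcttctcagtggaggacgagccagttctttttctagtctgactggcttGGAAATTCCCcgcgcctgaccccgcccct
Gbp5 promoter: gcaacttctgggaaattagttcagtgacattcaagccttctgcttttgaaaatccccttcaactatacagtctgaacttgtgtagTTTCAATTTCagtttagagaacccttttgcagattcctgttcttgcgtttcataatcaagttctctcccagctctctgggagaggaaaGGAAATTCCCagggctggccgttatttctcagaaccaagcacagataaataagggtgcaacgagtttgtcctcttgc
Cxcl10 promoter: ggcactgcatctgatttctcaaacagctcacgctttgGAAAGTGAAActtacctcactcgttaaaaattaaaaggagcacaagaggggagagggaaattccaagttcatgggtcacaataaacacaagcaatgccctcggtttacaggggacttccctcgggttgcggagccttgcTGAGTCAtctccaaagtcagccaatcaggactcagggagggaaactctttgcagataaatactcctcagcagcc
Ifit1 promoter: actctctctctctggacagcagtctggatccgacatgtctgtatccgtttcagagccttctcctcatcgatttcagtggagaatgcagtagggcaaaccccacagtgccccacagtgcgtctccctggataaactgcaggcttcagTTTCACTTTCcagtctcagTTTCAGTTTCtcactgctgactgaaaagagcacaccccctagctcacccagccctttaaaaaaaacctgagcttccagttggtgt

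The kappaB letters lay 73 to 64 bases before the start of Cxcl3, 44 to 35 before that of Il6, 29 to 20 before that of Nfkbia and 77 to 68 before that of Gbp5. The ISRE letters lay 165 to 156 bases before Gbp5, 213 to 204 before Cxcl10, and at 104 to 95 and 85 to 76 before Ifit1. In windows of 250 bases before to 50 after the start, kappaB letters occurred in 0.411% of 32851 windows and in 0.488% of 12697 windows of tested genes. Among 1306 windows of genes raised by at least 1 the share was 1.38%, against 0.387% for 1550 windows of genes lowered by at least 1 and 0.386% for the other 9841. The ISRE letters were in 3.44% of all windows, 9.19% of those raised, 2.65% of those lowered and 2.6% of the others, and AP-1 letters in 9.26, 6.06 and 4.85% of those 3 sets (7.81% of all). E-box letters were in 8.19% of raised, 9.74% of lowered and 10.1% of other windows, and in 7.15% of all. These shares are descriptions of sequence, and a match is not a bound site.

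Feedback genes were divided. Of 24 genes tested, 10 rose and 6 fell, with a median of 0.26, which lay 0.29 above that of all genes and 0.27 above it with total counts. Over all genes 18.9% rose and 19.3% fell, and the 6 falls are near that share. Socs3, which shuts down IL-6 receptor signalling, was at 3.28 to 10.9 CPM (median 7.5) with CCM and 315 to 578 CPM (median 431) with LPS+CCM. Its groups were separate and the change was 5.89 ± 0.312. Socs1 (2.86), an inhibitor of JAK kinases, Zc3h12a (2.95), the Regnase RNase, and Dusp2 (2.17), a MAP kinase phosphatase, also rose. Falls were in the RNA-destabilising genes Zfp36l1 (-2.35 ± 0.289) and Zfp36l2 (-2.20), while Dusp1 had a change of -0.02 ± 0.258 that was not called.

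Genes of the immediate early response went both ways at 6 h. Of 27 genes tested, 7 rose and 10 fell, with a median of -0.26, and in replicates 1, 3 and 4 alone 10 rose and 13 fell. The shares over all genes were 18.9% higher and 19.3% lower, and 28.4 and 30.8% in those replicates. Npas4 (-2.74) fell most, at low levels of 1.12 to 5.88 CPM with CCM, the highest in replicate 6, and 0.191 to 0.414 CPM with LPS+CCM. The paper names it among the few genes that CCM altered in unstimulated macrophages. Fos, a subunit of AP-1, was at 111 to 247 CPM (median 202) with CCM and 43.8 to 86.6 CPM (median 68.9) with LPS+CCM, without overlap (-1.49 ± 0.201). Jun (-1.46), Egr2 (-1.52) and Myc (-0.91) fell as well. Egr1 had a value of 0.00 ± 0.213, and was not called. Batf2, an interferon-induced AP-1 family member, rose by 4.41 ± 0.25, beside Batf (3.74), Nr4a3 (2.61) and Maff (2.03).

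Clock genes, of interest in cells with a Bmal1 deletion, were lower where they were called, except 1. Of 23 genes tested, 1 rose and 10 fell, with a median of -0.69. Dbp, an output factor driven through E-boxes, was at 3.7 to 6.7 CPM (median 4.64) with CCM and 0.64 to 1.5 CPM (median 1.25) with LPS+CCM. The groups did not overlap, and the change was -2.07 ± 0.252 (edgeR adjusted p = 1.83e-05). Per1, a repressor of the loop, fell by 0.99 ± 0.183, Nr1d1, the REV-ERBα repressor, by 1.14 ± 0.291, and Rora (-1.53), Tef (-1.47) and Npas2 (-1.83) with them. Cry2, another repressor, was the 1 that rose (0.63 ± 0.208), a call lost with upper-quartile scaling, with total counts and without replicate 1, 3 or 4 (edgeR adjusted p = 0.0736 to 0.091), and Clock, the partner of BMAL1, had a value of -0.08 that was not called. The Per1 promoter (chr11:69098699-69098948, + strand, 1 of 2 windows of the gene) is shown for the E-box letters 166 to 161 bases before its start, in capitals.
Per1 promoter: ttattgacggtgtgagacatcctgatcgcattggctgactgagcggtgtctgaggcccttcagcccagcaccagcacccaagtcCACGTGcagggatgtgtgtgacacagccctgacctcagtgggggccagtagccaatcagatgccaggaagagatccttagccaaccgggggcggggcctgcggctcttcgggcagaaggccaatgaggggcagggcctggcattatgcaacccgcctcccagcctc

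Metabolic effector genes, of arginine, itaconate and glucose use, rose or were not called. Of 24 genes tested, 17 rose and 0 fell, with a median of 1.31. Acod1, which makes itaconate, was at 1.79 to 8.01 CPM (median 4.68) with CCM and 4127 to 5964 CPM (median 5204) with LPS+CCM. The groups did not overlap and the change was 10.05 ± 0.409 (edgeR adjusted p = 6.03e-10). Rises were held by Slc7a2, an arginine transporter (5.86), Ass1 (4.77), Gch1, which makes the cofactor of NOS2 (3.68), Sod2 (5.09) and the glycolytic regulators Pfkfb3 (2.04) and Hif1a (1.61). Gapdh rose by 3.29, but many pseudogene copies share its reads and the value is uncertain. Arg1, the other arginine-consuming enzyme, had a change of 0.66 ± 0.318 and was not called, nor were Arg2 and Asl (-0.08). In the citric acid cycle 2 of 21 genes rose and 4 fell, with Idh1 (-1.19 ± 0.146) and Suclg2 (-1.25 ± 0.135) lowest and Dld (0.84 ± 0.156) highest, and the counts became 7 and 7 in replicates 1, 3 and 4. These shares are close to those over all genes at each setting (18.9% higher and 19.3% lower with 12 libraries, 28.4 and 30.8% in replicates 1, 3 and 4) or below them. Its median of 0.14 lay 0.17 above that of all genes, 0.18 above it with upper-quartile scaling and 0.15 above it with total counts.

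The 2 cyclooxygenases moved in opposite directions. Of 19 genes tested, 6 rose and 9 fell, with a median of -0.80. Ptgs2, the inducible cyclooxygenase, was at 7.99 to 30.01 CPM (median 14.1) with CCM and 262 to 855 CPM (median 611) with LPS+CCM, without overlap (5.20 ± 0.42). Ptgs1, the constitutive one, was at 39 to 51.4 CPM (median 43.4) with CCM and 10.4 to 14.5 CPM (median 13.6) with LPS+CCM, also without overlap (-1.75 ± 0.122). Ptges, the inducible prostaglandin E2 synthase, rose by 7.22 ± 0.195, and Hpgd, which inactivates prostaglandins, had the largest fall at -4.40 ± 0.272. In leukotriene synthesis Alox5 (-1.40), Alox5ap (-0.83), Ltc4s (-1.58) and Lta4h (-0.82) were all lower.

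**Figure D3:**
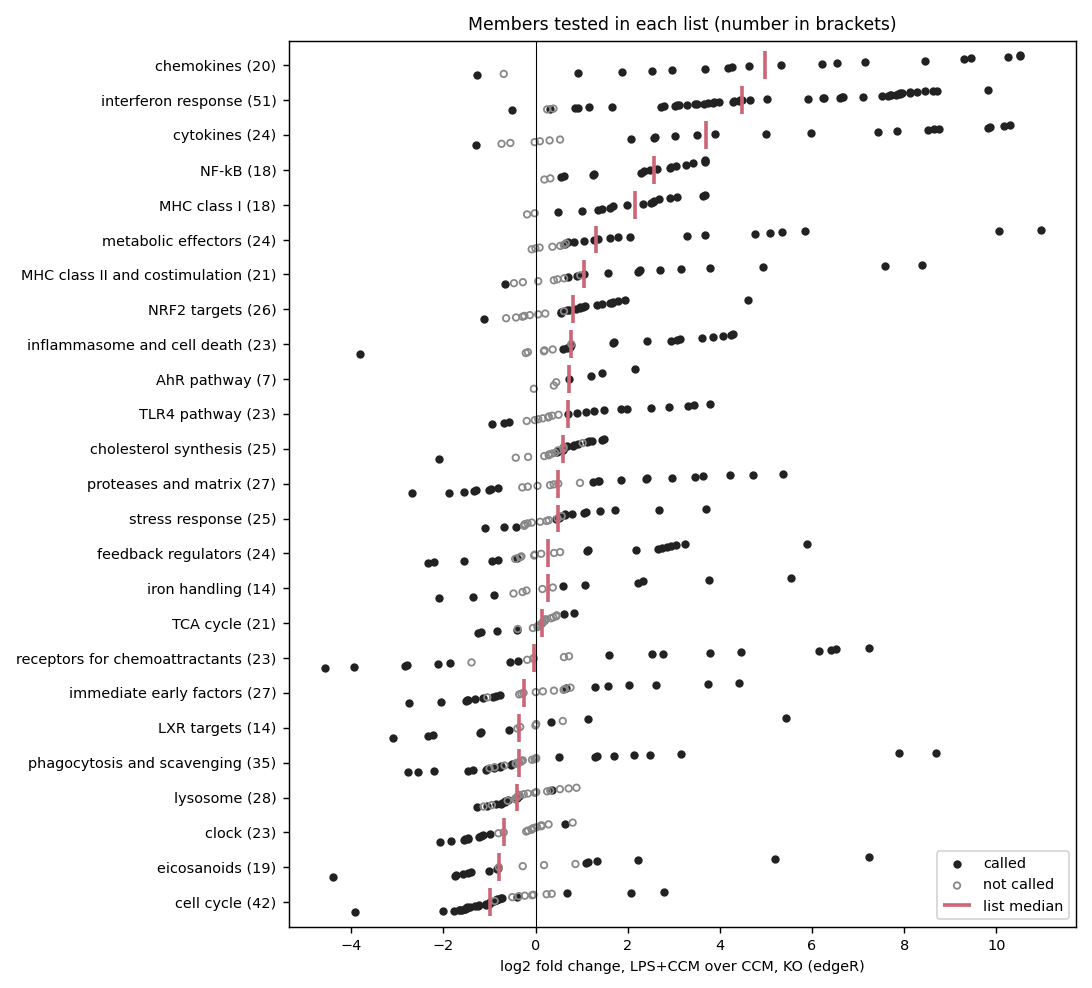
Log2 change (LPS+CCM over CCM, horizontal axis) of every tested member of the 25 lists, filled where called, open where not, with a bar at the list median. The chemokine and interferon lists lie furthest to the right and cell cycle furthest to the left, against a median over all genes of -0.03.

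Genes of class I antigen presentation mostly rose, and those of class II in part. Of 18 genes tested, 16 rose and 0 fell, with a median of 2.15, among them Tap1 (3.62 ± 0.179), a transporter of peptides, and Psme2 (3.68 ± 0.437), a proteasome activator. For class II and costimulation 13 of 21 rose and 1 fell, with a median of 1.06. Cd40, a receptor for T cell help, was at 1.67 to 3.52 CPM (median 2.37) with CCM and 558 to 1308 CPM (median 821) with LPS+CCM, without overlap (8.39 ± 0.300), and the checkpoint ligand Cd274 (PD-L1) rose by 3.79, Cd86 by 2.27. Of the class II chains, H2-Ab1 had 1.06 ± 0.371, a call lost with upper-quartile scaling and when any 1 of replicates 1 to 5 was left out (edgeR adjusted p = 0.059 to 0.127), while H2-Aa (0.47) and Cd74 (0.62) did not pass. Cd83 was lower (-0.67 ± 0.212), a call lost without replicate 1, 2, 4 or 5 (edgeR adjusted p = 0.0516 to 0.0631). The H2-Ab1 and Cd83 calls were kept without replicate 6. In CCM replicate 6 H2-Ab1 was at 364 CPM, against a median of 120 CPM in CCM replicates 1 to 5. Class I genes of the H2 family are close copies, so H2-K1 (1.62) and H2-D1 (0.47) are uncertain.

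Uptake receptors went both ways. Of 35 genes tested, 9 rose and 12 fell, with a median of -0.37, and in replicates 1, 3 and 4 alone 9 rose and 22 fell, where the share lower over all genes went from 19.3 to 30.8%. Marco, a scavenger receptor for bacteria, was at 0.565 to 2.46 CPM (median 1.44) with CCM and 398 to 944 CPM (median 564) with LPS+CCM, without overlap (8.69 ± 0.424), and the receptors Msr1 (2.14 ± 0.129) and Fcgr1 (2.49) followed. Cd93 (-2.77 ± 0.258), Gas6 (-2.56), the bridge to apoptotic cells, and Itgb5 (-2.22) fell. Mertk, the receptor for Gas6, was at 29.6 to 179 CPM (median 162) with CCM and 34.7 to 102 CPM (median 79.4) with LPS+CCM, not called with 12 libraries and called without replicate 6 (edgeR adjusted p = 0.000696). Of 28 lysosomal genes 1 rose and 10 fell (6 and 21 in replicates 1, 3 and 4), with a median of -0.40. Lipa, the acid lipase, fell (-1.26 ± 0.206), and Ctsd, a protease of the lysosome (-0.95 ± 0.513), passed without replicate 6 (edgeR adjusted p = 0.00431).

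Sterol synthesis genes rose moderately. Of 25 genes tested, 13 rose and 1 fell, with a median of 0.60, and 21 rose in replicates 1, 3 and 4. Hsd17b7, an enzyme of the pathway, was higher (1.47 ± 0.495), a call lost with total counts and when any 1 of replicates 1 to 5 was left out (edgeR adjusted p = 0.0614 to 0.0903), and Sqle, which oxidises squalene, rose as well (0.83), while Dhcr7, the last step to cholesterol, fell (-2.10 ± 0.18). The Hsd17b7 call was kept without replicate 6, which held 0.521 CPM with CCM against a median of 12.1 CPM in CCM replicates 1 to 5. Among 14 genes of the LXR sterol response, 3 rose and 6 fell. Ch25h, which makes an oxysterol, rose by 5.43 ± 0.281, and the efflux genes Abcg1 (-2.22 ± 0.246) and Arl4c (-3.10 ± 0.158) fell. Abca1 had 0.59 ± 0.353 and was called without replicate 6 (edgeR adjusted p = 0.012).

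Oxidative stress genes driven by NRF2 were mostly higher. Of 26 genes tested, 17 rose and 1 fell, with a median of 0.80. Slc7a11, the cystine importer, was at 24.6 to 72.7 CPM (median 59.3) with CCM and 918 to 1725 CPM (median 1414) with LPS+CCM, without overlap (4.61 ± 0.267), and Hmox1, heme oxygenase, rose by 1.80 ± 0.177. The glutathione peroxidase Gpx1 was the member that fell (-1.12 ± 0.389), a call lost when any 1 of replicates 1 to 5 was left out (edgeR adjusted p = 0.0707 to 0.0811). The Gpx1 call was kept without replicate 6, which held 1066 CPM with CCM against a median of 333 CPM in CCM replicates 1 to 5. Nqo1, a quinone reductase, rose (0.73 ± 0.149), a call lost with total counts. Of 7 aryl hydrocarbon receptor pathway genes 4 rose, including Ahr (2.15 ± 0.328) and its repressor Ahrr (1.45). In the stress list 12 of 25 rose and 3 fell, led by the chaperone Hspa1a (3.69 ± 0.189), whose near-identical neighbour Hspa1b makes its reads uncertain, while Eif2ak3 (-1.09 ± 0.291), the PERK sensor, fell and Ddit3 (0.10) was not called. The 3 falls lay below the share of 19.3% lower over all genes.

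In iron handling 6 of 14 genes rose and 3 fell, with a median of 0.26, which lay 0.29 above that of all genes and 0.30 above it with total counts. Over all genes 18.9% rose and 19.3% fell, and the 3 falls are near that share. The ferroxidase Cp rose by 5.54 ± 0.299 and Lcn2, which sequesters bacterial siderophores, by 3.76. Slc40a1, the iron exporter ferroportin, was at 53.9 to 372 CPM (median 268) with CCM and 19.5 to 92.6 CPM (median 60.6) with LPS+CCM, groups that overlapped (-2.10 ± 0.412, edgeR adjusted p = 0.00106), and Tfrc, the transferrin receptor, fell too (-0.90 ± 0.14).

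All inflammasome and cell death genes that were called rose, with 1 exception. Of 23 genes tested, 16 rose and 1 fell, with a median of 0.77. Nlrp3, the sensor of the inflammasome, was at 6.93 to 41.3 CPM (median 37.1) with CCM and 155 to 672 CPM (median 487) with LPS+CCM, without overlap (3.84 ± 0.443), and Casp1, which cleaves pro-IL-1β, rose by 2.42 ± 0.129. Fas (4.27 ± 0.233), Casp4 (4.07), the sensor of cytosolic LPS, and Gsdmd (1.67), the pore-forming effector of pyroptosis, rose as well. The exception was Nlrp1b (-3.82 ± 0.309).

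Receptors for chemoattractants split into raised and lowered members. Of 23 genes tested, 9 rose and 8 fell, with a median of -0.04 that turned above 0 when replicate 2 was left out and in replicates 1, 3 and 4. Fpr2, which senses formyl peptides, rose by 7.23 ± 0.17, beside Gpr84 (6.41) and the adenosine receptors Adora2a (6.15) and Adora2b (4.45). Cxcr4, the receptor that holds cells in bone marrow, was at 46 to 133 CPM (median 121) with CCM and 3.3 to 6.97 CPM (median 3.99) with LPS+CCM, 23.8-fold lower and without overlap (-4.58 ± 0.295). Ccr2, needed for monocyte recruitment, was at 14.6 to 26.2 CPM (median 16.7) with CCM and 1.45 to 3.57 CPM (median 2.76) with LPS+CCM, without overlap (-2.83 ± 0.24), and Cx3cr1, the fractalkine receptor, was lower too (-1.86 ± 0.215).

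Of 27 protease and matrix genes 12 rose and 8 fell. The collagenase Mmp13 rose by 5.38 ± 0.215 and the vasoconstrictor Edn1 by 4.72 ± 0.385, while Plau, the urokinase activator of plasminogen, was at 126 to 249.7 CPM (median 205) with CCM and 19.1 to 38 CPM (median 32) with LPS+CCM, without overlap (-2.68 ± 0.206). Timp1, an inhibitor of these proteases, had 0.96 ± 0.618 and was not called.

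Cell cycle genes were the list with the lowest median. Of 42 genes tested, 3 rose and 31 fell, with a median of -0.98, against 19.3% lower over all genes. Cdkn1a, the p21 inhibitor, was at 58.6 to 93.2 CPM (median 64.4) with CCM and 363 to 581 CPM (median 480.1) with LPS+CCM, without overlap (2.79 ± 0.165). Falls were held by E2f2, an activator of replication genes (-3.93 ± 0.234), Ccnd1, which binds the G1 kinases (-1.65 ± 0.311), and Mcm5, of the replicative helicase (-0.98 ± 0.199). The proliferation marker Mki67 had -0.08 ± 0.117 and was not called, while the mitotic kinase gene Aurkb (-1.59) and the factor Foxm1 (-1.67) were lower.

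Whether CCM altered the response to LPS was tested by the difference between LPS+CCM minus CCM and LPS minus vehicle in the 24 KO libraries, 6 per group. By edgeR's quasi-likelihood test, 1 gene of 14588 (0.00685%) passed. It was Glul (chr1:153899944-153909723), glutamine synthetase, at 199 to 234 CPM (median 222) with CCM and 83.8 to 114 CPM (median 105) with LPS+CCM. All LPS+CCM libraries lay below all CCM libraries. In the fit of 24 libraries its level fell by 1.09 on the log2 scale with CCM and by 1.87 without, a difference of 0.78 (SE 0.125, edgeR adjusted p = 0.0334). The value was 0.70 to 0.80 across the alternatives, and the call was lost with total counts, without the filter, in the test against a change of 1, in replicates 1, 3 and 4, and when any 1 of replicates 1 to 5 was left out (edgeR adjusted p of 0.134 or more). At an unadjusted p under 0.05 by this test stood 536 genes, below the 729 that chance alone would give. Without replicate 6 that number was 1926. The count of genes that passed ran from 0 to 100 over the alternatives, and was 81 with the replicate number as a block. The 5 largest rises and 5 largest falls named above lay on the same side of 0 in both responses, with log2 changes for Nos2 of 10.96 with and 9.44 without CCM, for Cxcl3 of 10.53 and 8.52, for Ccl5 of 10.52 and 9.15, for Il1b of 10.29 and 9.17 and for Il12b of 10.16 and 8.99. Each of these 5 rises, chosen by the response with CCM, was larger with CCM as a value, and 0 of the 5 differences passed. Among the falls Slco2b1 was at -6.42 with and -6.88 without CCM and St6gal1 at -5.52 and -5.18. Other differences that did not pass were 1.20 for Hspa1a (edgeR adjusted p = 0.248) and -0.82 for Osm.

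**Figure D4:**
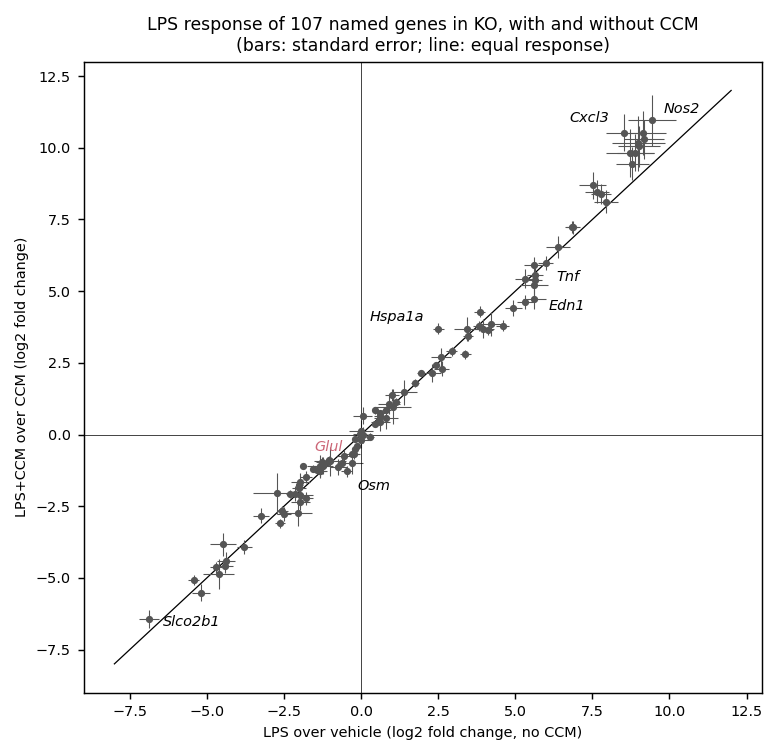
Log2 change for LPS in KO macrophages with CCM (LPS+CCM minus CCM, vertical axis) against that without CCM (LPS minus vehicle, horizontal axis), 1 point for each of 107 named genes, with standard errors as bars and the line of equal change. The points follow the line less closely for the largest rises, such as Cxcl3, Nos2 and Ccl5, which lie above it and whose differences did not pass. Glul, the 1 called gene, lies above the line by less, at -1.09 with CCM and -1.87 without.

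The strength of the whole response was also read for each replicate number, as a description that does not take a number to mark 1 animal, over 1867 genes raised and 2105 lowered by at least 1 on the log2 scale by LPS in WT libraries, which share no library with the KO. The median change of the raised genes was 1.74 ± 0.0839 with CCM and 1.88 ± 0.0361 without (mean and SD over 6 replicate numbers), a difference of -0.142 ± 0.0797 that was below 0 in 5 of 6. For the lowered genes it was -1.32 ± 0.116 with CCM and -1.45 ± 0.109 without, a difference of 0.130 ± 0.0856 that was above 0 in 5 of 6. The responses with CCM were thus closer to 0 in both lists by 0.142 and 0.130, a description with no test. Both lists were chosen by the response to LPS without CCM, a choice that can favour larger changes without CCM.

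**Figure D5:**
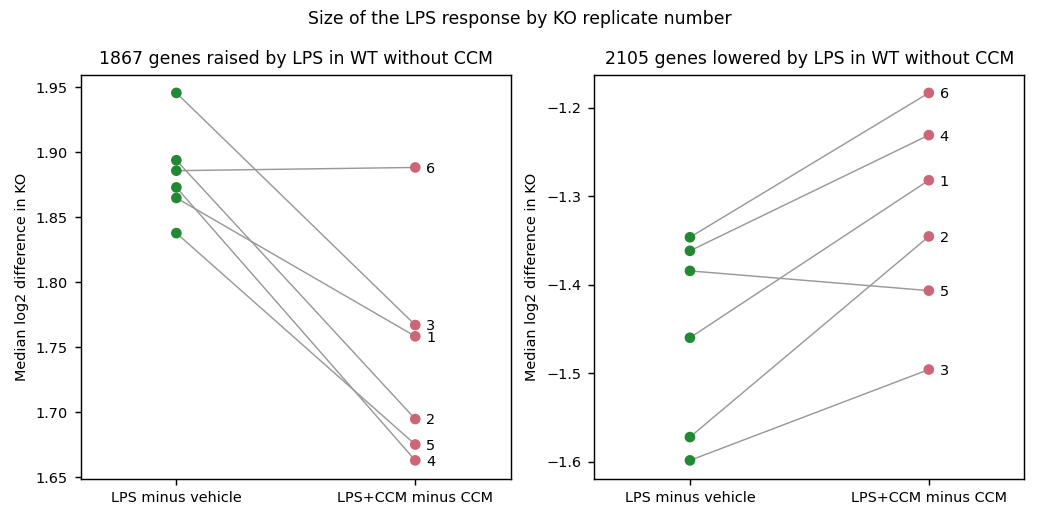
Median log2 change for LPS in each KO replicate with and without CCM, for genes that LPS raised (1867) or lowered (2105) in WT libraries without CCM. Each line joins the 2 values of 1 replicate number (vertical axis, log2), and with CCM the values lie nearer 0 in 5 of 6 replicates for each list.

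The deletion was set beside WT with CCM present in both, by the interaction of LPS and genotype over 18 libraries. By edgeR's quasi-likelihood test 0 of 15086 genes passed (0%), and DESeq2 and voom called 0. At an unadjusted p under 0.05 by the edgeR test stood 98 genes, below the 754 that chance alone would give. That number was 281 without replicate 6 and 344 with KO replicates 1, 3 and 4 alone. The LPS response with CCM in WT, by this fit, was for Tnf 5.72 against 5.99 in KO, for Il6 9.81 against 9.83 and for Dbp -1.91 against -2.06. For Bmal1 the difference between genotypes was -0.55 ± 0.345 (SE), KO minus WT, and was not called. A count of 0 does not show that the genotypes respond alike.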

How the data were processed

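RNA of KO and WT BMDMs was sequenced as paired ends after poly(A) selection. Per the submitters' processing notes, the authors used fastp for trimming and HISAT2 2.0.5 for alignment to mm10, and counted read pairs with featureCounts 1.5.0-p3. The values the authors deposited are raw counts per gene, without normalization, for 54532 genes, and the strand setting is not stated in the sources used here. Of these genes 54495 have an identifier in GENCODE M21 (GRCm38), 53585 with identical start and end.

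From the deposited counts, the 12 KO libraries with CCM or LPS+CCM were fitted with edgeR 4.0.16 in R 4.3.3 (filterByExpr, TMM scaling, glmQLFit and glmQLFTest, 2-sided, Benjamini-Hochberg adjusted p of at most 0.05), without a block. Of the 54532 genes, 27179 had 0 reads in these libraries. Interactions were fitted on 24 KO libraries (LPS by CCM) and on 18 libraries of both genotypes with CCM (LPS by genotype). CPM used TMM factors and log2 CPM a prior count of 2. RPKM values were computed here from those CPM and the gene length in the table. Floors are 3 reads over a group. Replicates are numbered samples that the labels do not tie to separate animals, so p-values measure the spread between these samples, which may be technical. The libraries of a group differed by more than counting noise (lowest chi-square over its degrees of freedom, 4.19).

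The members, lists and tests were chosen with earlier results of these data known. Genes named by rule were lead genes of 25 lists, per list the called member with the largest rise and with the largest fall, the 5 largest rises and 5 largest falls over all genes, the 5 called genes with the smallest adjusted p of each interaction and Bmal1. Genes other than the lead genes also needed a mean log2 CPM of 1 or more and 1 direction across all 6 replicate numbers. Other list members given as examples were picked after their values were seen. Alternatives were RLE, upper-quartile and total-count scaling, no filter beyond 1 count, DESeq2 1.42.0, voom with quality weights (limma 3.58.1), all 36 libraries, the replicate number as a block, a test against a log2 change of 1 and each replicate left out, with replicates 1, 3 and 4 alone added after seeing the data. The scripts were tested on simulated data. Promoters came from RefSeq (GRCm38.p6), and 9964 of the 13727 tested symbols matched. The results of 3 items are not reported here.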

Additional observations from a re-analysis of the deposited data

Results flagged for a closer look

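Dixon's criterion was applied to each named gene and library property in groups of 6, where chance alone sets a library apart in about 1 group in 20. Of 234 groups examined, 49 had 1 library apart, against 12 by that rate. CCM replicate 6 was the library apart for 36 named genes, LPS+CCM replicate 5 for 4, LPS+CCM replicate 6 for 4 and CCM replicate 4 for 1 (Cxcl3). CCM replicate 6 was also apart in the share of reads on its 10 most abundant genes (19.6%), on mitochondrial genes (0.255%) and on ribosomal protein genes (9.45%), and in the long minus short gene deviation (-1.31 on the log2 scale).

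Glul was singled out because its response to LPS differed with and without CCM by 0.78 on the log2 scale in the test of the interaction. Its adjusted p by edgeR's quasi-likelihood test was 0.0334, and with replicate 6 left out 0.0129. The range over the alternatives and the settings that lost the call are given with the comparison above.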

How the results depend on the processing

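The count of 5250 genes in the LPS response with CCM was within 1.5 times under RLE size factors (5223), upper-quartile scaling (5572), no filter (5257), DESeq2 (6230), all 36 libraries (7169) and the replicate block. It moved further with voom and quality weights (8850, of which 4354 higher and 4496 lower), with the test against a log2 change of 1 (1620, 931 and 689) and in replicates 1, 3 and 4 alone (8300, 3984 and 4316). With total counts 1629 were higher and 4464 lower. Leaving out 1 replicate gave 4277 to 7821 calls, 2165 to 3945 higher and 2112 to 3876 lower, the highest of them without replicate 6. The cause of these shifts was not tested.

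The 1 call of the LPS by CCM interaction became 0 with total counts, 0 without the filter, 0 in the test against a change of 1 and 0 in replicates 1, 3 and 4, and 12 with DESeq2, 100 with voom and 8 with all 36 libraries. Leaving out 1 replicate gave 0 to 10. For the LPS by genotype interaction the count was 0 under every alternative run, and 0 to 0 with a replicate left out.

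The replicate numbers were checked by the correlation of same-numbered deviations from the group means, -0.14 to 0.79, of which 4 of 6 exceeded 0.1, with a median of 0.019 between different numbers, and 8 of 12 libraries correlated best with their own number. The pairs that failed involve LPS+CCM libraries. Between vehicle and LPS the correlations were 0.30 to 0.83, between vehicle and CCM 0.34 to 0.84 and between CCM and LPS 0.43 to 0.81, with 6 of 6 over 0.1 in each. Since not every pair of the groups compared passed, the tests reported carry no block. With the replicate block 7450 genes were called in the LPS response and 81 in the LPS by CCM interaction.

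Of 94 named genes called, 81 were called at every setting and 13 lost the call at 1 or more (Batf3, Cd36, Cd83, Cry2, Dld, Gpx1, H2-Ab1, Hsd17b7, Hspa5, Nqo1, Tfe3, Tlr4 and Zfp36), and 0 turned direction. Changes near 0 that were not called, and some list medians, turned sign. With upper-quartile scaling and total counts all genes shifted (medians -0.21 and -0.37). Relative to those shifts, each value that turned sign kept the side of the median of all genes that it had with TMM. With upper-quartile scaling they were Sdha -0.14, Egr1 -0.18, Ddit3 -0.10 and the citric acid cycle median -0.029. With total counts they were Sdha -0.32, Egr1 -0.36, Ddit3 -0.20 and the medians of the citric acid cycle -0.23, feedback -0.10 and iron -0.079 lists. With voom they were Sdha -0.012, Dusp1 0.019 and Egr1 -0.031. With 1 replicate left out the values ran from -0.088 to 0.064 for Dusp1, -0.035 to 0.052 for Egr1, -0.0098 to 0.065 for Sdha, -0.11 to 0.37 for Ddit3 and -0.067 to 0.064 for the chemoattractant receptor median. In replicates 1, 3 and 4 they were Sdha -0.046, Dusp1 0.061, Egr1 -0.054, Ddit3 -0.15, Mki67 0.045 and that median 0.068. Library totals of 15326246 or more limit what can be read for genes with a few reads in 1 group.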

Other observations

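Genes outside the lists, chosen after their values were seen, changed as much as those within them. Saa3, an acute phase protein, rose by 10.11 on the log2 scale, Tarm1, a receptor of myeloid cells, by 9.71, and Shisa3 by 9.38. Among the falls, Lpin1, a phosphatidate phosphatase of lipid synthesis, had -4.46, Cnr2, the cannabinoid receptor of immune cells, -4.18, and Sgsh, a lysosomal sulfatase, -3.97. Each passed edgeR's quasi-likelihood test with Benjamini-Hochberg adjustment. The zinc finger gene Zfp395 had -4.49 and Rnf150 -4.62.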
